A study of Oryza sativa with 48 samples.

Results

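Untreated wild-type rice seedlings were compared between their root and their 2nd leaf. The 6 libraries concerned, of 48 in the series, were the 3 root and the 3 leaf libraries of the genotype labelled Kitaake_WT (WT) at 0 h. They were chosen by their labels alone and not by any measured value, and all identifiers of the count table entered. Kitaake is a japonica rice cultivar. All groups were 11-day seedlings from hydroponics, kept at 28 °C and 60% relative humidity under a 12 h photoperiod. The WT plants at 0 h had received no NaCl. Each library came from 3 plants. The same tissues of the genotype labelled aoc at 0 h without NaCl (6 libraries), and of WT after 1, 6 and 72 h in 100 mM NaCl (6 libraries per time), served as further root and leaf pairs. The labels name the genotype aoc without saying how it was made or in which background. RNA of roots was prepared with the RNeasy Plant Mini Kit and that of leaves with Tri-Reagent. Tissue and extraction method therefore cannot be told apart in any comparison of root with leaf. For that reason differences of 4-fold or more and of 32-fold or more are given most room.

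A leaf fixes carbon in its chloroplasts, and the nuclear genome supplies most of the proteins that chloroplasts need. A root takes up water and mineral nutrients and anchors the plant, and it holds few developed chloroplasts. Organs of this kind share a large set of genes for basic cell functions and differ in the genes for their special tasks. The deposited table gives rice identifiers without gene names, and the reference table at hand shares 1 identifier with it. Identifiers are therefore printed without a name or a role, at most 2 per direction in each comparison. The labelled tissues could not be checked against known root or leaf genes for the same reason.

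Total counts were 33.1 M to 33.8 M in the WT root libraries and 31.1 M to 36.9 M in the WT leaf libraries. Levels are given in CPM, the counts of an identifier per 1 M of all counts after TMM scaling over the 48 libraries. Before these factors, 3 counts corresponded to 0.0814 to 0.0965 per 1 M counts in a library. Across identifiers, the log2 CPM of root replicates correlated at 0.987 to 0.991 and that of leaf replicates at 0.981 to 0.991. Root and leaf libraries correlated at 0.596 to 0.641 with each other. Each library thus lay far closer to the others of its labelled tissue than to the other tissue. Replicates had a median SD, on the log2 CPM scale, of 0.135 (root) and 0.177 (leaf). No pair of replicates was a copy of another.

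The comparison asked how the transcripts of untreated root and leaf differ. Of 25049 identifiers tested, 19139 (76.4%) differed between the tissues at a Benjamini-Hochberg adjusted p under 0.05 (edgeR quasi-likelihood test), 10286 higher in root and 8853 higher in leaf. At 4-fold or more, 8579 differed (34.2% of those tested). Of these, 5306 (21.2% of those tested) were higher in root and 3273 (13.1%) higher in leaf. At 32-fold or more, 3101 (12.4%) differed, 2127 (8.49%) higher in root and 974 (3.89%) higher in leaf. The 3 libraries of one tissue lay above the 3 of the other for 20346 identifiers (81.2%), and for 8563 of the 8579 that differed 4-fold or more. When the test itself asked for a difference beyond 4-fold (edgeR glmTreat), 6974 were called, 4299 higher in root and 2675 higher in leaf. In bulk samples, fewer cells of a type and less RNA per cell cannot be told apart.

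**Figure D1:**
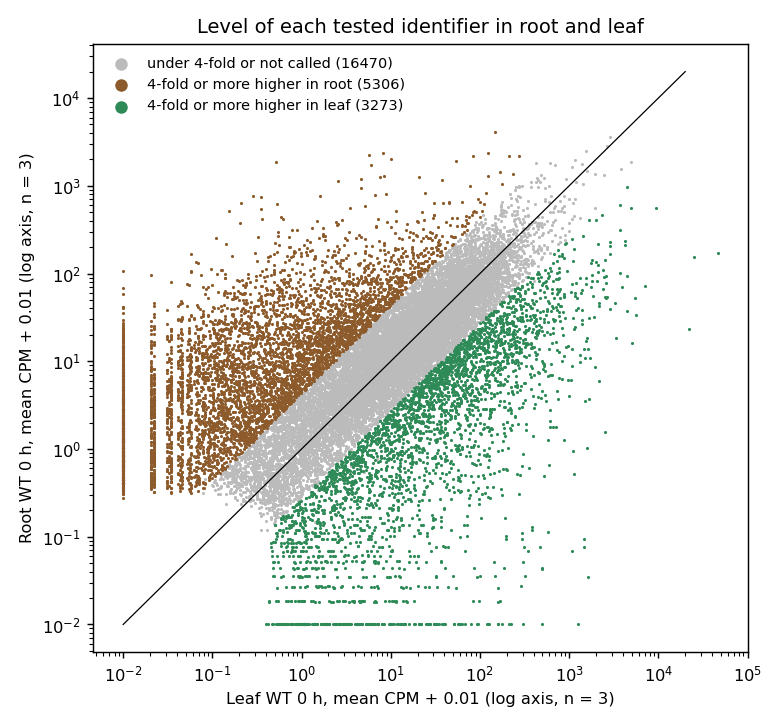
Mean level of each of the 25049 tested identifiers in WT leaf (horizontal) and WT root (vertical) at 0 h, in CPM plus 0.01 on log axes, n = 3 libraries each. Brown points are the 5306 identifiers 4-fold or more higher in root, green points the 3273 higher in leaf, grey points all others, and the line marks equal levels. Points at 0.01 had no read in that tissue.

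The balance between the tissues changed with the size of the difference. Root-higher identifiers made up 58.4% of those called at 2-fold or more (7803 against 5569) and 61.9% at 4-fold or more. Their share rose to 70.2% at 64-fold or more (1603 against 682) and was 55.7% at 1024-fold or more (181 against 144). The middle of the distribution lay close to equality, with a median log2 difference (root minus leaf) of 0.10 over all tested identifiers. The quartiles were -0.86 and 1.57 on the log2 scale, and the outer 5% on each side began at -4.35 and 6.72. The long arm of the distribution was thus on the root side. For 7526 identifiers (30.05% of those tested) the 95% interval of the difference lay wholly within 2-fold. This count includes 3487 that differed significantly by such small amounts.

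**Figure D2:**
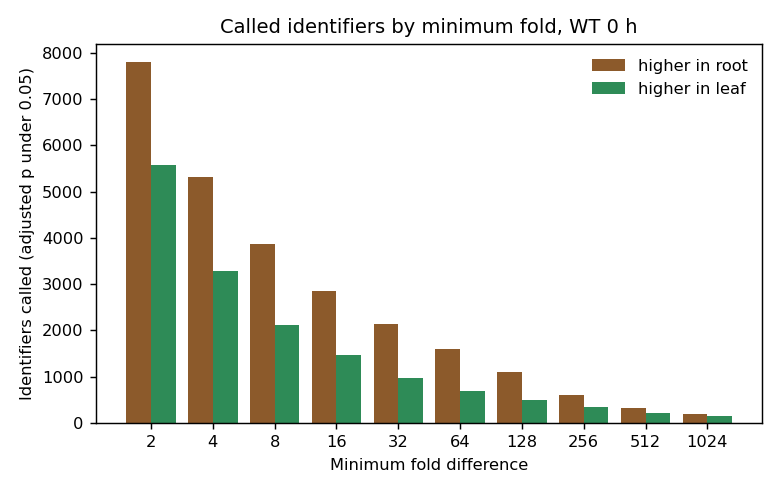
Number of identifiers called at an adjusted p under 0.05 whose difference reached at least the fold on the horizontal axis, from 2 to 1024, in WT at 0 h. Brown bars, higher in root, exceed green bars, higher in leaf, at each step: 5306 against 3273 at 4-fold and 181 against 144 at 1024-fold.

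The split depended on the scaling, in all 5 root and leaf comparisons. Under TMM, which brings a trimmed mean of the log2 differences close to equality, the median log2 difference was 0.10. Under RLE size factors it was also 0.10. With library totals alone it was 0.71, a shift of 0.61 on the log2 scale towards root. The calls then split into 14461 higher in root and 5419 higher in leaf, so root-higher identifiers made up 72.7% of the calls instead of 53.7%. In the other pairs the same change was from 53.2% to 76.4% (aoc at 0 h), 49.5% to 69.5% (WT at 1 h), 52.1% to 72.4% (6 h) and 54.9% to 71.4% (72 h). At 4-fold or more the numbers became 6705 and 2500. Of the 5306 identifiers 4-fold higher in root, 5304 met the criterion under all 3 scalings, and of the 3273 higher in leaf, 2500 did. All changes given here are relative to the TMM scaling.

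The tissues also differed in how evenly their counts were spread. In the 3 leaf libraries, 45.9%, 48.3% and 52.5% of all counts came from the 3273 identifiers that were 4-fold or more higher in leaf. In the 3 root libraries, 22.9%, 24.1% and 23.8% came from the 5306 that were 4-fold or more higher in root. The smaller leaf set thus took about double the share in leaf that the larger root set took in root, with no overlap between libraries. In the other tissue the sets took little: the leaf set 3.69% to 4.37% of root counts, and the root set 0.957% to 1.31% of leaf counts. The 974 identifiers 32-fold or more higher in leaf alone held 22.7% to 27% of leaf counts and 0.245% to 0.410% of root counts. These sets were picked in the same 6 libraries, so low shares in the other tissue follow from the choice. In the aoc libraries of 0 h, not used for the choice, the leaf set held 52.7% to 56.2% of leaf and 3.71% to 4.09% of root counts. There the root set held 23.0% to 24.9% of root and 0.826% to 1.39% of leaf counts. Identifiers under 4-fold held 71.7% to 72.8% of root counts and 46.5% to 52.7% of leaf counts.

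The single most counted identifier took 3.35% to 4.42% of a leaf library and 0.464% to 0.501% of a root library. The 10 most counted took 10.3% to 12.8% in leaf and 3.09% to 3.37% in root, and the 100 most counted 25.6% to 30.1% and 13.7% to 14.3%. The first 50% of all counts fell on 559 to 813 identifiers in leaf and on 1726 to 1778 in root, again with no overlap. Of the 100 most counted in leaf, 85 were 4-fold or more higher there and 48 of them 32-fold or more. Over all tested identifiers these shares were 13.1% and 3.89%. Of the 100 most counted in root, 41 were 4-fold or more higher in root and 20 of them 32-fold or more, against 21.2% and 8.49% of all tested. Each list was ranked by counts of the same libraries that gave the calls, which favours identifiers higher in its own tissue. The lists of 100 shared 15 identifiers and the lists of 10 shared 0. Counts also grow with transcript length, so a share of counts is not a share of molecules.

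**Figure D3:**
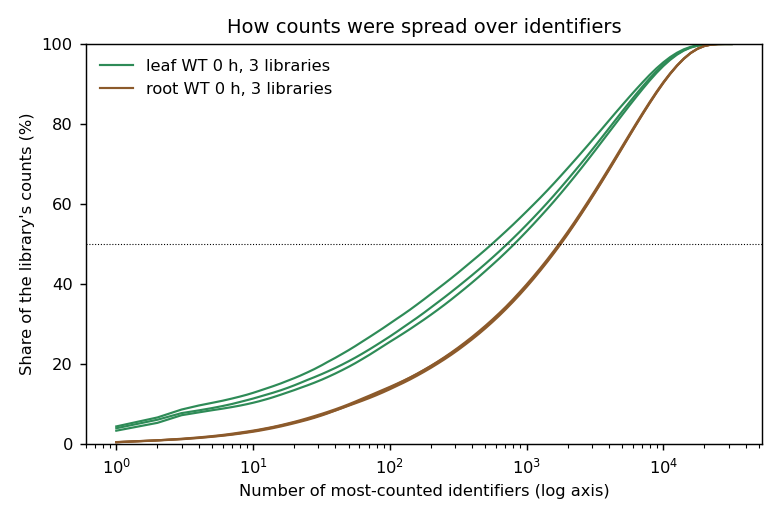
Share of a library's counts (vertical, in percent) held by its most counted identifiers, whose number is on the horizontal log axis, for the 3 root (brown) and 3 leaf (green) libraries of WT at 0 h. The dotted line marks 50%, which the leaf libraries reach at 559 to 813 identifiers and the root libraries at 1726 to 1778.

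Which tissue led depended on the level of the transcript. Among 7801 identifiers whose mean in the higher tissue was 1 to 10 CPM, 2275 were 4-fold or more higher in root (29.2%) and 921 higher in leaf (11.8%). Among 12407 at 10 to 100 CPM, the numbers were 2063 (16.6%) and 1318 (10.6%). The order turned at 100 to 1000 CPM, with 358 of 2798 higher in root (12.8%) and 748 higher in leaf (26.7%). At 1000 CPM or more, 21 of 151 were 4-fold higher in root (13.9%) and 99 higher in leaf (65.6%). Large root differences were thus mostly of weakly counted transcripts, and the strongly counted ones leaned to leaf. The median SE of the log2 difference was 0.304 at 1 to 10 CPM, 0.133 at 10 to 100 CPM, 0.128 at 100 to 1000 CPM and 0.302 at 1000 CPM or more. Below 1 CPM it was 0.545.

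Most transcripts were present in both tissues. An identifier was counted as detected in a tissue at 1 CPM or more in all 3 of its libraries. In root 20982 were detected and in leaf 18552, and 17080 were detected in both. Root alone had 3902 and leaf alone 1472. A stricter set was detected in one tissue and had no read in any of the other tissue's 3 libraries. There were 271 such identifiers in root, with a median of 4.06 CPM and 17 of them at 20 CPM or more. There were 137 in leaf, with a median of 6.58 CPM and 41 of them at 20 CPM or more. The highest reached 107 CPM in root and 1253 CPM in leaf. The root set became 319 without leaf WT 0 h replicate 1, 442 without replicate 2 and 441 without replicate 3. Leaving out a library can only enlarge this set, and the growth differed between the leaf libraries.

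The identifiers named here had the largest fitted log2 differences among those at 20 CPM or more, an order that favours identifiers without a read in one tissue. It is not an order of measured ratios: Os12g0515800, for example, had 142625 reads in WT leaf and 3 in WT root, and Os02g0662000 had 222199 in root and 43 in leaf. Os08g0139700 stood at 927, 1268 and 1564 CPM in leaf WT replicates 1, 2 and 3 at 0 h and had no read in the 3 root libraries. It was at least 49812-fold higher in leaf, with 3 counts over the 3 root libraries as the floor (edgeR adjusted p = 5.25e-06). Os12g0115500 stood at 452, 402 and 648 CPM in the same leaf libraries, also with no read in root. It was at least 19721-fold higher in leaf (edgeR adjusted p = 5.21e-06). The 3 leaf libraries were of one order for both identifiers, and no root library came near them.

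On the root side, Os05g0134800 stood at 69.3, 112 and 138 CPM in root WT replicates 1, 2 and 3 at 0 h, with no read in leaf. It was at least 3079-fold higher in root (edgeR adjusted p = 2.60e-05). Os04g0554500 stood at 33.8, 59.5 and 113 CPM in root, with no read in leaf, and was at least 1978-fold higher in root (edgeR adjusted p = 0.000236). Its 3 root libraries spread over more than 3-fold. All 4 identifiers stayed called without any 1 of the 6 libraries. Their direction could not turn in those fits, since each had no read in the lower tissue.

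Across the rest of the series these 4 had the higher mean in the same tissue in each genotype and hour. Os12g0115500 ranged from 172 to 648 CPM over the 24 leaf libraries and had 2 reads in root, both in root WT 72 h replicate 3. Os08g0139700 varied more: its mean in untreated WT leaf was 1253 ± 319 CPM (SD, n = 3), with 187 ± 13.4 CPM at 6 h and 208 ± 152 CPM at 72 h. In aoc leaf at 0 h it averaged 490 ± 37.0 CPM. Over the 24 root libraries its highest value was 0.109 CPM, in root aoc 0 h replicate 3. Within WT root, Os05g0134800 averaged 107 ± 34.9 CPM at 0 h, 24.8 ± 6.45 CPM at 1 h, 15.02 ± 8.52 CPM at 6 h and 38.5 ± 9.60 CPM at 72 h. Os04g0554500 averaged 68.8 ± 40.4, 34.3 ± 13.4, 3.04 ± 1.84 and 35.5 ± 6.10 CPM at those hours in WT root. Both were thus lowest at 6 h. In aoc root Os04g0554500 was also lowest at 6 h, at 24.2 ± 16.4 CPM, against 160 ± 62.8 CPM at 0 h and 166 ± 21.1 CPM at 72 h. In leaf, both were highest in leaf aoc 0 h replicate 3, at 4.99 and 7.19 CPM, with no read in the other 2 aoc leaf libraries of that hour.

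**Figure D4:**
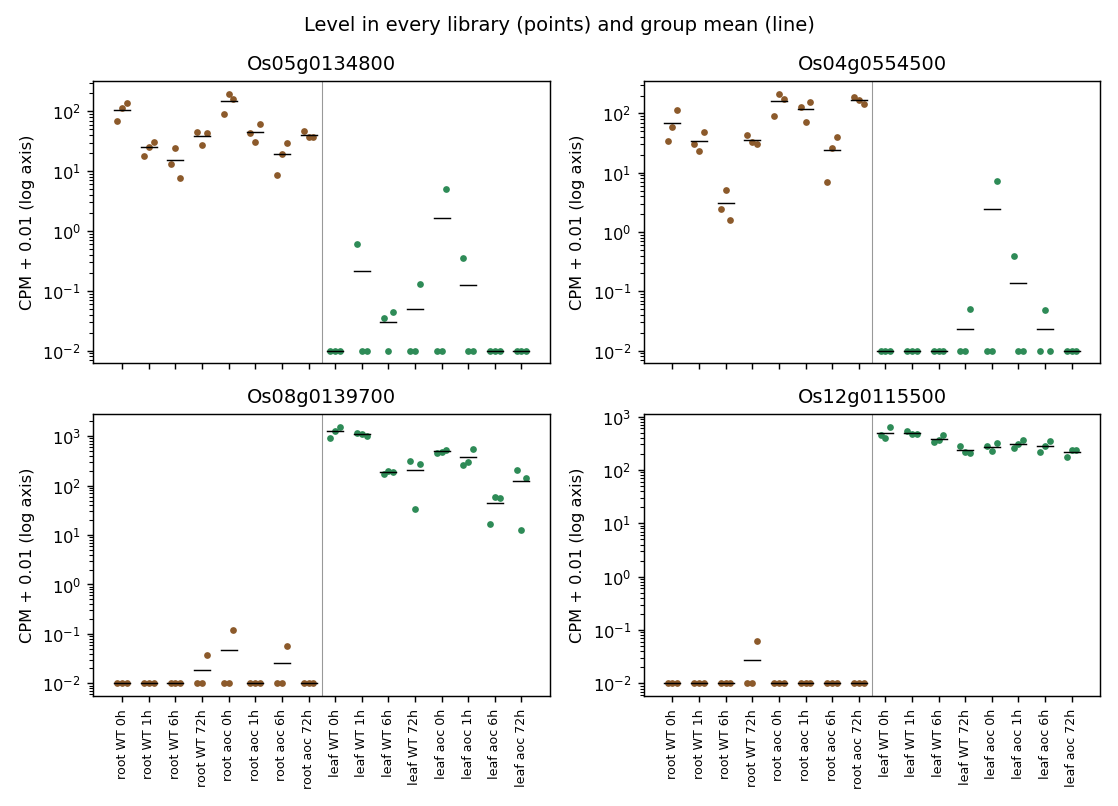
Levels of the 4 identifiers named from the WT 0 h comparison in each of the 48 libraries, in CPM plus 0.01 on log axes. Brown points are root and green points leaf libraries by genotype and hour, short lines are means of 3 libraries, and points at 0.01 had no read. In each genotype and hour the mean is higher in the same tissue as at 0 h. Leaf aoc 0 h replicate 3 stands at 7.19 CPM for Os04g0554500, above the 3 root WT 6 h libraries of that identifier (1.58 to 5.10 CPM). For Os05g0134800 it stands at 4.99 CPM, below the 3 root WT 6 h libraries of that identifier (7.54 to 24.3 CPM).

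The same comparison was made in aoc, whose 6 libraries the WT comparison does not use. Of 25062 identifiers tested, 18191 (72.6%) differed between aoc root and aoc leaf at 0 h, 9686 (38.6%) higher in root and 8505 (33.9%) higher in leaf. At 4-fold or more, 8865 (35.4%) differed, of which 5418 (21.6%) were higher in root and 3447 (13.8%) higher in leaf. Of the 5306 identifiers 4-fold higher in WT root, 4726 (89.1%) were called at 4-fold or more in the same direction in aoc, which is 87.2% of the aoc root set. Of the 3273 higher in WT leaf, 2882 (88.05%) were, or 83.6% of the aoc leaf set. Of the WT root set 1 was called in the opposite direction in aoc, and of the WT leaf set 0. In aoc, 5166 of the WT root set and 3145 of the WT leaf set were tested. Across 24596 identifiers tested in both, which are not independent replicates, the log2 differences of the 2 genotypes correlated at Pearson r = 0.952 (Spearman 0.967).

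The identifiers with the largest fitted log2 differences in aoc again had no read in one tissue, while Os12g0515800 had 101374 reads in aoc leaf and 4 in aoc root. Os02g0583700 stood at 364, 260 and 84.9 CPM in root aoc replicates 1, 2 and 3 and had no read in aoc leaf, at least 5661-fold higher in root (edgeR adjusted p = 0.000666). In WT it stood at 261, 258 and 79.9 CPM in root and at 0.288, 1.90 and 0 CPM in leaf. Os11g0255500 averaged 63.6 ± 12.2 CPM in aoc root (SD, n = 3) with no read in aoc leaf, at least 1575-fold higher (edgeR adjusted p = 2.44e-05). Os12g0583300 averaged 523 ± 180 CPM in aoc leaf with no read in aoc root, at least 20800-fold higher (edgeR adjusted p = 6.38e-05). Os12g0115500 followed, at 274 ± 48.4 CPM in aoc leaf with no read in aoc root, at least 10745-fold higher (edgeR adjusted p = 1.23e-05). All of these lay on the same side in WT.

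The difference between the genotypes' tissue contrasts was tested directly over the 12 libraries of 0 h. Of 25922 identifiers, 17 (0.0656%) were called, and 3115 had an unadjusted p under 0.05. The log2 difference, root minus leaf, was greater in aoc than in WT for 9 (0.0347%) and smaller for 8 (0.0309%). A greater value does not mean that root exceeded leaf. Os07g0511400 had the largest difference among those at 20 CPM or more. It stood at 501, 458 and 424 CPM in aoc root, 13.2, 13.1 and 20.8 CPM in aoc leaf, 0.0979, 0.177 and 0.154 CPM in WT root and 0.541, 0.0948 and 0.326 CPM in WT leaf. Its tissue difference was 6.00 ± 0.64 larger in aoc on the log2 scale (SE; edgeR adjusted p = 0.0117). It was above WT in both tissues of aoc, and by more in root.

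The other 3 named identifiers of that test differed between the genotypes mainly in leaf. Os06g0552900 stood at 46 ± 2.10 CPM in WT leaf and 11.1 ± 1.25 CPM in aoc leaf (SD, n = 3), against 0.679 ± 0.0531 and 1.15 ± 0.413 CPM in root. The difference of contrasts was 2.80 ± 0.30 on the log2 scale (edgeR adjusted p = 0.0117). Os04g0249600 stood at 3.77 ± 0.814 CPM in WT leaf and 23.8 ± 2.46 CPM in aoc leaf, against 1.83 ± 0.302 and 2.16 ± 0.512 CPM in root. Its difference of contrasts was -2.40 ± 0.31 (log2; edgeR adjusted p = 0.0254). Os07g0484800 stood at 26.9 ± 2.50 CPM in WT leaf and 62.2 ± 6.45 CPM in aoc leaf, against 3.19 ± 0.653 and 2.19 ± 0.341 CPM in root (-1.75 ± 0.23; edgeR adjusted p = 0.0254).

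The number of such calls was unstable. It was 609 with DESeq2, all 17 among them. It was 8, 2, 11, 10, 9, 4 and 1 without root aoc replicate 1, root aoc replicate 2, root WT replicate 2, root WT replicate 3, leaf aoc replicate 1, leaf aoc replicate 2 and leaf WT replicate 1 of 0 h. It was 60 without leaf aoc 0 h replicate 3 and 53 without leaf WT 0 h replicate 3. Os07g0511400 lost its call without root aoc 0 h replicate 2 (adjusted p = 0.0539) or leaf WT 0 h replicate 1 (0.0681), and Os06g0552900 without the latter (0.0525). Os04g0249600 kept its call only without root aoc replicate 3, root WT replicate 1, leaf aoc replicate 3 or leaf WT replicate 3, and lost it without each of the other 8 libraries (0.0626 to 0.0845) and with the replicate block (0.0589). Os07g0484800 kept its call only without root WT replicate 1 or 3, leaf aoc replicate 3 or leaf WT replicate 3, and lost it without each of the other 8 (0.0591 to 0.0860). With library totals alone the adjusted p was 0.0685 and 0.0676 for these last 2. The direction of all 4 stayed the same in each of these fits.

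Root and leaf were then compared within the WT plants after 1, 6 and 72 h of NaCl, again in libraries that the 0 h comparison does not use. The series holds untreated libraries at 0 h only. The hour of sampling, and plant age where it differed, therefore cannot be told apart from NaCl. Differences of 4-fold or more were called for 31.9% of those tested at 1 h, 31.8% at 6 h and 31.8% at 72 h. At 1 h, 4701 identifiers (18.7% of 25103 tested) were 4-fold or more higher in root and 3298 (13.1%) higher in leaf. At 6 h the numbers were 5137 (20.3% of 25348) and 2914 (11.5%), and at 72 h 4899 (19.5% of 25072) and 3063 (12.2%). Of the 5306 identifiers 4-fold higher in root at 0 h, 4172 (78.6%) met the same criterion at 1 h, 4183 (78.8%) at 6 h and 4085 (77%) at 72 h. Of the 3273 higher in leaf at 0 h, 2765 (84.5%) did at 1 h, 2422 (74%) at 6 h and 2245 (68.6%) at 72 h. These make up 88.8%, 81.4% and 83.4% of the root sets of those hours and 83.8%, 83.1% and 73.3% of the leaf sets. Tested at 1, 6 and 72 h were 5079, 5108 and 5065 of the 5306, and 3199, 3159 and 3099 of the 3273. Untested identifiers count as not meeting the criterion. The median SE of the log2 difference was 0.207, 0.201 and 0.321 at those hours, against 0.195 at 0 h. At 72 h 14729 identifiers were called, against 19139 at 0 h. The part of this wider spread in the lower percents at 72 h was not tested.

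**Figure D5:**
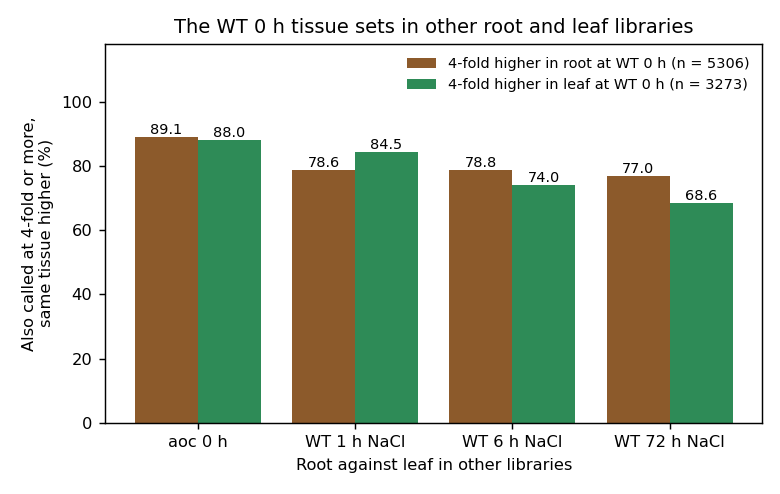
Percent of the identifiers 4-fold or more higher in WT root (brown, n = 5306) or WT leaf (green, n = 3273) at 0 h that were also called at 4-fold or more in the same direction in 4 other root and leaf comparisons. The root set runs from 89.1% in aoc at 0 h to 77% in WT at 72 h, and the leaf set from 88.05% to 68.6%. Identifiers not tested in a comparison count as not called there.

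The median difference of both sets was smaller in size at 1, 6 and 72 h than at 0 h. The median log2 difference of the root set was 4.25 at 0 h, 3.49 at 1 h, 4.02 at 6 h and 3.93 at 72 h. That of the leaf set was -3.70 at 0 h, -3.55 at 1 h, -3.14 at 6 h and -2.88 at 72 h. Both sets were picked for large values at 0 h, so a smaller median elsewhere is partly set by that choice. In aoc at 0 h, without NaCl, the medians were 3.97 and -3.93. Over all tested identifiers the median log2 difference was 0.10 at 0 h, -0.02 at 1 h, 0.03 at 6 h and 0.09 at 72 h. TMM brings each comparison close to equality, so these medians do not compare the hours. In aoc at 0 h and in WT at 1, 6 and 72 h together, 3196 of the root set (60.2%) and 1747 of the leaf set (53.4%) met the criterion every time. By contrast, 152 of the root set and 86 of the leaf set met it in none of the 4.

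The named identifiers of these hours were again present in 1 tissue and nearly or fully without reads in the other. At 1 h Os08g0139700 and Os12g0115500 led on the leaf side, at 1099 ± 76.3 and 499 ± 36.7 CPM (SD, n = 3), with no read in root. Os04g0554500 and Os02g0205200 led on the root side, at 34.3 ± 13.4 and 24.9 ± 2.37 CPM, with no read in leaf. At 6 h Os12g0515800 stood at 1403 ± 89.3 CPM in leaf with no read in root, at least 56388-fold higher in leaf (edgeR adjusted p = 3.51e-06). At 0 h it already stood at 1638, 1832 and 1417 CPM in leaf and had 1 read in each root library. Os12g0115300 followed at 6 h, at 690 ± 43.4 CPM in leaf with no read in root.

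On the root side at 6 h, Os02g0662000 stood at 375, 946 and 955 CPM in root and had 5 reads in leaf, all in replicate 1. Reads per effective library size stood at a ratio of 15962, for which counting error alone gave a 95% interval from 6840 up to 49162 (edgeR adjusted p = 1.26e-05). Without leaf WT 6 h replicate 1 it had no read in leaf, and the fitted log2 difference was 17.74 instead of 13.77 (edgeR adjusted p = 0.000232), so that 1 library set the size of this ratio. It was among the strongest root transcripts at 0 h, at 1313, 1816 and 2490 CPM, against 0, 0.347 and 1.16 CPM in leaf. Os05g0458300 averaged 39.7 ± 11.5 CPM in root at 6 h with no read in leaf. At 72 h Os11g0575600 and Os05g0552600 stood at 46.8 ± 11 and 36.4 ± 11.8 CPM in root with no read in leaf. Os12g0515800 and Os12g0569500 stood at 948 ± 335 and 198 ± 110 CPM in leaf with no read in root. All of these 72 h identifiers lay on the same side at 0 h.

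Reversals were few. Of the 5306 identifiers 4-fold higher in root at 0 h, 2 were 4-fold or more higher in leaf at 1 h, 2 at 6 h and 35 at 72 h. Of the 3273 higher in leaf at 0 h, 5, 11 and 3 were 4-fold or more higher in root at 1, 6 and 72 h. Of the 2127 that were 32-fold higher in root at 0 h, 0 had turned at 1 h or 6 h and 6 at 72 h. These 6 had 0.343 to 4.48 CPM in the root libraries and at most 0.108 CPM in the leaf libraries of 0 h. At 72 h they were at 0.0841 to 6.98 CPM in root. In leaf at 72 h they ranged from 0.128 to 7.54 CPM in replicate 1, 5.72 to 169 CPM in replicate 2 and 2.50 to 232 CPM in replicate 3. Their levels in leaf replicate 1 thus overlapped with those in root, while the medians in leaf replicates 2 and 3 were 16.6 and 42.7 CPM against at most 1.32 CPM in root. The 974 that were 32-fold higher in leaf at 0 h had 0 reversals at any hour. Only tested identifiers could be called reversed. Tested at 1, 6 and 72 h were 937, 915 and 876 of the 974, and 2022, 2016 and 1995 of the 2127.

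The identifiers without a read in one tissue at 0 h stayed low there. Of the 271 detected in root and without a read in WT leaf at 0 h, 0 were detected in all 3 WT leaf libraries at 1 h, 0 at 6 h and 1 at 72 h. Of the 137 detected in leaf and without a read in WT root, 0 were detected in root at any hour. In their own tissue, 78.97%, 83.8% and 74.9% of the root identifiers and 86.1%, 84.7% and 67.2% of the leaf identifiers were still detected at 1, 6 and 72 h. In aoc at 0 h, 90.8% and 83.9% were detected in their own tissue and 0 in the other. At least 1 read in the other tissue, over its 3 libraries, was found for 134 to 213 of the 271 and for 41 to 46 of the 137 in these 4 pairs. A single library held reads for 199 of the 213 in aoc leaf at 0 h (replicate 3) and for 189 of the 210 in WT leaf at 1 h (replicate 1).

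Identifiers with large differences occurred on all 12 chromosomes. The chromosome is the number at the start of a rice identifier. The percent of tested identifiers that were 4-fold or more higher in root ran from 19.4% on chromosome 2 to 23.4% on chromosome 11, against 21.2% in all. For leaf it ran from 11.5% on chromosome 5 to 14.8% on chromosome 11, against 13.1% in all. Neighbours in the order of the identifiers formed runs in which each tested member was 4-fold or more higher in the same tissue. There were 47 root runs of 5 or more members, with 262 identifiers, and 17 leaf runs, with 92. These runs were described after their values were seen and were not tested. The longest root runs had 10 members, 1 on chromosome 7 (log2 differences of 2.34 to 10.95) and 1 on chromosome 8 (2.46 to 6.50). The longest leaf run had 9 members on chromosome 1 (-11.97 to -2.04). Of the 262 root identifiers in runs, 232 (88.5%) were 4-fold higher in root in aoc too, and of the 92 leaf identifiers 82 (89.1%) were higher in leaf, against 89.1% and 88.05% of the whole sets. In WT at 1, 6 and 72 h the root identifiers in runs stood at 84.7%, 87.02% and 84.3%, against 78.6%, 78.8% and 77% of the whole root set. The leaf identifiers in runs stood at 86.96%, 78.3% and 76.1%, against 84.5%, 74% and 68.6% of the whole leaf set. These differences were not tested. How reads that match several copies of a gene were counted is not given in the sources used here, so members of a run can share reads.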

How the data were processed

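Root and 2nd leaf of 6 WT libraries at 0 h, and the further pairs, were analysed from the read counts (raw) that the authors deposited as 1 table with 35667 rice identifiers and 48 columns. The submitters' processing notes name fastp, HISAT2, DESeq2 and the build IRGSP-1.0 but no tool versions. Which tool counted the reads, with which strand setting and annotation release, is not given in the sources used here. Per the labels, reads were paired ends of 150 bp and RNA had a RIN of at least 6. All columns were matched to samples by their names, and 0 rows named no gene.

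Counts were tested in R 4.3.3 with edgeR 4.0.16 and limma 3.58.1: filterByExpr by group, TMM factors and a robust quasi-likelihood fit of the compared groups alone, without a block. Calls needed a p under 0.05 after Benjamini-Hochberg adjustment over all identifiers tested. The SE of a log2 difference is the difference divided by the square root of F. CPM use TMM factors over all 48 libraries, while fold changes come from each fit. Bounds use a floor of 3 counts over a group. Floors and intervals cover counting error only, since reads carry no molecular identifiers. The labels call replicates biological, of 3 plants each.

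Named identifiers were the 2 with the largest fitted log2 difference per direction and comparison, with an adjusted p under 0.05, at least 20 CPM in the higher group and, for 2 groups, no overlap between libraries. A condition on gene names was dropped because the reference table held 1 of the identifiers, and for the same reason 40 lists of gene functions matched 0 members and were not used. No sequence is printed because the reference at hand holds none. The members, lists and tests were chosen with earlier results of these data known.

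In simulated counts of the WT 0 h comparison over 25049 genes, the test called 52.2% of 67 genes changed 2-fold, 88.1% of 67 changed 4-fold and 97% of 66 changed 32-fold, with 14 false calls. For the difference between genotypes, over 25922 genes, it called 13.4%, 44.8% and 90.9%, with 4 false calls. For WT at 72 h, over 25072 genes, it called 0%, 61.2% and 100%, with 6 false calls. Every other simulated gene had the same mean in all groups, unlike the WT 0 h data, where 19139 of 25049 identifiers were called. These percents and false calls therefore cannot be carried over to the root and leaf comparisons.

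Replicate numbers were taken to pair root and leaf libraries only in the replicate block, an alternative fit. The reported counts used no block. In WT at 0 h the deviations of same-numbered libraries from their group means correlated at 0.111, 0.167 and 0.180, while other pairings gave at most 0.00655. Deviations cancel out within a group, so the low values of other pairings are not separate support. At 6 h in WT the same held (0.109, 0.0908 and 0.0862, others at most 0.00409). Elsewhere it did not: aoc replicate 2 at 0 h gave -0.0187 (others up to 0.133) and WT replicate 2 at 1 h -0.0443 (others up to 0.103). At 72 h in WT other pairings reached 0.104. The pairing comes from the data, as the labels do not say what a number marks. The alternatives were RLE size factors, library totals, no filter, DESeq2 1.42.0, the replicate block, all 48 or the 12 libraries of 0 h in the fit, glmTreat and leaving out each library.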

Additional observations from a re-analysis of the deposited data

Results flagged for a closer look

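The tissue contrast differed between aoc and WT at 0 h for 17 identifiers by a test of the difference itself over 12 libraries (edgeR quasi-likelihood, Benjamini-Hochberg adjusted). Each of the 4 named ones is listed because that test called it.

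For Os07g0511400 the log2 difference of contrasts was 6.00 (root minus leaf in aoc, minus the same in WT). For Os06g0552900 it was 2.80. For Os04g0249600 it was -2.40, and for Os07g0484800 -1.75. The values per library and the fits in which these calls were lost stand beside the comparison of the genotypes.

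Leaf aoc 0 h replicate 3 stood apart in this comparison. Of the 271 identifiers detected in WT root with no read in WT leaf at 0 h, it had reads for 199, against 45 in each of the other 2 aoc leaf libraries. Their summed level was 82 CPM there, or 3.67% of the mean of aoc root, against 3.89 and 3.93 CPM. Without this library 60 identifiers were called, all 17 among them. The part of this in the calls was not tested further.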

How the results depend on the processing

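For the 5 root against leaf comparisons the number of calls stayed within 1.5 times the reported number under every alternative run. Leaving out 1 library gave 17783 to 19195 calls in WT at 0 h, 8663 to 8935 at 4-fold or more and 3189 to 3383 at 32-fold or more. It gave 16446 to 18350 in aoc, 16617 to 18291 at 1 h, 17133 to 17801 at 6 h and 12085 to 15254 at 72 h. The replicate block gave 18716 calls in WT at 0 h against 19139 without it, and 17 calls for the genotype difference, 12 of them shared with the 17 reported. Among the named identifiers it changed only the call of Os04g0249600. With library totals alone, root-higher identifiers made up 69.5% to 76.4% of the calls in the 5 comparisons, against 49.5% to 54.9%. For the genotype difference, DESeq2 gave 609 calls against 17, and leaving out 1 library gave 1 to 60. The cause was not tested. The number detected in root without a read in leaf was 282 to 442 when 1 library was left out, and in leaf without a read in root 142 to 167. The alternatives for the 32-fold, shared and no-read counts were chosen after seeing the data. Levels near the floor of 3 counts limit what "no read" can show.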

Other observations

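The identifiers detected in root and without a read in WT leaf at 0 h were read at uneven levels in the other leaf libraries. Their summed level was 39.6 CPM in leaf WT 1 h replicate 1, with reads for 189 of 271, against 7.56 and 13.2 CPM in replicates 2 and 3. At 72 h in WT it was 6.23, 16.8 and 35.6 CPM in leaf replicates 1, 2 and 3. In the 9 leaf libraries of aoc after NaCl it was 3.84 to 22.6 CPM. The reverse set, detected in leaf and without a read in WT root, summed to 0.631 to 8.27 CPM in the 21 other root libraries. The mean of the leaf group of the same genotype and hour was 2523 to 4180.5 CPM. Os02g0662000, a strong root transcript, stood at 115 CPM in leaf aoc 0 h replicate 3 and at 0.340 and 0.0811 CPM in the other 2.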
